A study of Mus musculus with 19 samples.

Results

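Fatty acid oxidation in mitochondria and peroxisomes was followed through 36 genes on 19 microarrays from mouse fat cells with and without MED1. The genes come from the known enzymes, electron carriers and transporters of the pathway and were chosen with earlier results of these data known. All 36 were measured, each by 1 row of the table, among 22180 genes with a single gene symbol. MED1 is a subunit of the Mediator complex, which links transcription factors to RNA polymerase II. The study asked which transcripts depend on MED1 early in fat cell formation and in brown fat.

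The cells were 3T3-L1, fibroblasts of mouse origin that take on fat cell traits after a hormone cocktail. Wild-type parental cells (WT) and MED1-KO cells were each measured at day 0 and at day 2 of differentiation, with 2 arrays per group. The knockout was made with CRISPR/Cas9, and each knockout array holds RNA pooled from individual clones, so differences that arose during cloning cannot be told apart from those of MED1 loss. Interscapular brown fat of embryos at E17.5 carried Myf5Cre in all 7 arrays. The 3 controls were Med1f/w, with 1 floxed and 1 wild-type allele, and the 4 knockouts were Med1f/f, with both alleles floxed. Myf5Cre acts in precursors shared by skeletal muscle and brown fat. Interscapular brown fat of mice at 10 weeks was Med1f/f in all 4 arrays, 2 without Cre as controls and 2 with AdipoqCre, which acts in mature fat cells. The labels do not say whether replicates came from separate cultures, litters or animals, and the p-values therefore rest on the spread among arrays, part of which may be technical.

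Brown fat burns fatty acids to make heat. In each round of mitochondrial β-oxidation an acyl-CoA dehydrogenase removes electrons, a hydratase adds water, a second dehydrogenase oxidises again and a thiolase releases acetyl-CoA. The electrons of the first step pass through the electron transfer flavoprotein to the respiratory chain. Peroxisomes shorten very long and branched chains by a similar sequence of reactions, after ABCD transporters bring the acyl-CoA in. Many of these genes are known targets of the PPAR receptors, to which MED1 is known to bind.

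Values are log2 RMA signals, and a log2 difference of 1 is a doubling. The experiments have different array medians, from 2.87 to 2.89 in the adult, 3.49 to 3.57 in the embryo and 4.69 to 4.79 in cells, and look normalized apart. Levels are therefore compared within an experiment only. Signals of different genes come from different probes and are not ranked against each other. A gene is called changed when limma gives an adjusted p under 0.05 over all 22180 genes. The ± values are standard errors of the log2 difference, and groups are said not to overlap when every array of 1 group lies beyond every array of the other.

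Med1 itself was measured first. In cells the WT arrays lay between 8.23 and 8.55 and the MED1-KO arrays between 7.0 and 7.16, and Med1 fell in the comparison of 4 array pairs by 1.31 ± 0.08 (limma, adjusted p = 0.0011). In adult brown fat Med1 was 5.99 and 6.90 in controls and 5.28 and 5.13 in knockouts, a difference of -1.24 ± 0.31 that was not called (adjusted p = 0.19). In the embryo it was 6.94, 7.33 and 7.82 in controls and 7.0, 7.10, 7.10 and 6.88 in knockouts. The embryonic arrays overlapped, with a difference of -0.35 ± 0.19 (adjusted p = 0.37). The controls there keep a floxed allele under the same Cre, and where the Med1 probes lie relative to the deleted sequence is not given in the sources used here. Ucp1, the uncoupling protein that defines brown fat, read 10.07 to 11.59 in embryonic controls and 12.09 and 12.50 in adult controls. In 3T3-L1 cells it read 3.83 to 4.31, near the arrays' lower quartile of genes of 3.74 to 3.83.

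Promoter sequence was taken from RefSeq on GRCm38.p6. It runs from 250 bases before to 50 after the annotated start, 5′ to 3′ on the gene's strand. The members shown are a selection that includes the only 2 with a match to the motif below. Other called members, among them Acaa2, Etfdh, Abcd3 and Acadl, are not shown. The table held a promoter for 30 of the 36 genes. Etfa (chr9:55512194-55512493, minus strand) and Ehhadh (chr16:21787785-21788084, minus strand) were called lower in the embryonic knockout. Echs1 (chr7:140116372-140116671, minus strand) changed between days in WT cells. Acot1 (chr12:84009252-84009551, plus strand) was called higher in the embryonic knockout. Its neighbour Acot2 (chr12:83987611-83987910, plus strand) showed the widest difference between days in cells. The capitals mark the only matches in members' promoters to a DR1, the form of site bound by PPAR with RXR, allowing 2 of its 12 fixed bases to change.
Etfa: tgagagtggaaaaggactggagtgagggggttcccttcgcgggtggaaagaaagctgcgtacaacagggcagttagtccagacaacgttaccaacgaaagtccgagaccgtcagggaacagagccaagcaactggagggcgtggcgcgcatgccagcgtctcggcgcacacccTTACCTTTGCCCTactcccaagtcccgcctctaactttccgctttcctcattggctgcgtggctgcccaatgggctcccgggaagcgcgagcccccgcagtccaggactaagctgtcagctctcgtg
Ehhadh: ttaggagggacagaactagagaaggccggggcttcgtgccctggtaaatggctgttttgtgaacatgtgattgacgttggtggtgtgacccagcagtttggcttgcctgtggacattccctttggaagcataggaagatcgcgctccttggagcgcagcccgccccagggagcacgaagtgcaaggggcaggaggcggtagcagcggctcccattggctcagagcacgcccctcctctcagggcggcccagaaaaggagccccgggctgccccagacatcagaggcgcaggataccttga
Echs1: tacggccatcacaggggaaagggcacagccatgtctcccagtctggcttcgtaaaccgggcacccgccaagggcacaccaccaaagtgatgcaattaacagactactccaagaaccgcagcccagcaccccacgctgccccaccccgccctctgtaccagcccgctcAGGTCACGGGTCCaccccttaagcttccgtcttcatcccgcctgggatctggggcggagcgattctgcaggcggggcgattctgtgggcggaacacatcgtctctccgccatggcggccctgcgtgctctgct
Acot1: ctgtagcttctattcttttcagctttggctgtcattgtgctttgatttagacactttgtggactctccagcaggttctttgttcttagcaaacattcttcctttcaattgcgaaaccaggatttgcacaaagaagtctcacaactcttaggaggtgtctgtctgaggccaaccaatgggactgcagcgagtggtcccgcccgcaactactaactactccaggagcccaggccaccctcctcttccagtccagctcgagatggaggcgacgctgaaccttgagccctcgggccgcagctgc
Acot2: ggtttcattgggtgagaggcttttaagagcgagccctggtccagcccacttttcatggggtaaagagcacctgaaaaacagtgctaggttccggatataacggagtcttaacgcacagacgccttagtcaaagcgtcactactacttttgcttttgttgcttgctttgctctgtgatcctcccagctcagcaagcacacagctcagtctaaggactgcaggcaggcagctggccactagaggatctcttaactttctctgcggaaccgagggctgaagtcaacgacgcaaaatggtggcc

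The DR1 searched is the half-site AGGTCA, then any 1 base, then AGGTCA again, on both strands. The match in Echs1 runs from -83 to -71 relative to the start on the gene's strand and holds an exact half-site as its first 6 letters. The match in Etfa runs from -77 to -65 on the opposite strand. Such matches stood in 3.86% of all 32851 promoters and in 2 of the members' 32 promoters. An exact DR1 was in 0.0396% of all promoters and one with at most 1 change in 0.554%, and no member had either. The half-site AGGTCA alone stood in 16.3% of all promoters and in those of 3 members, Acadm, Acadvl and Echs1. TCAAGGTCA, the extended half-site of the ERR receptors, was in 0.423% of all promoters and in none of the members'. Acot1 and Acot2, neighbours on 1 chromosome, were identical at 46.8% of aligned positions in this window, against 50% for the unrelated pair Etfa and Ehhadh. No match says only that these letters are not in the window.

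The first comparison asked whether the pathway differs in embryonic brown fat between Myf5Cre Med1f/f and Myf5Cre Med1f/w. Most of its genes read lower in the knockout: 34 of 36 had a negative log2 difference, beside 53.8% of all genes, and the members' median was -0.66 against -0.01 for all genes. The arrays did not overlap and were lower in the knockout for 25 members, beside 6.83% of all genes. They were higher for 1 member, beside 8.56% of all genes. Since the members were chosen with earlier results of these data known, these shares are no independent test. Called lower were 6 members, Ehhadh, Acaa2, Etfdh, Abcd3, Acadl and Etfa, beside 0.500% of all genes. Called higher was 1 member, Acot1, beside 0.658% of all genes. The calls lie close to the threshold, with adjusted p from 0.045 to 0.049. A further 16 members, all lower, had adjusted p from 0.05 to 0.1, and 31 members had an unadjusted p under 0.05, beside 20% of all genes. Leaving out any 1 of the 7 arrays left 0 members and 0 of all genes called, while the members' median stayed between -0.75 and -0.53.

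**Figure D1:**
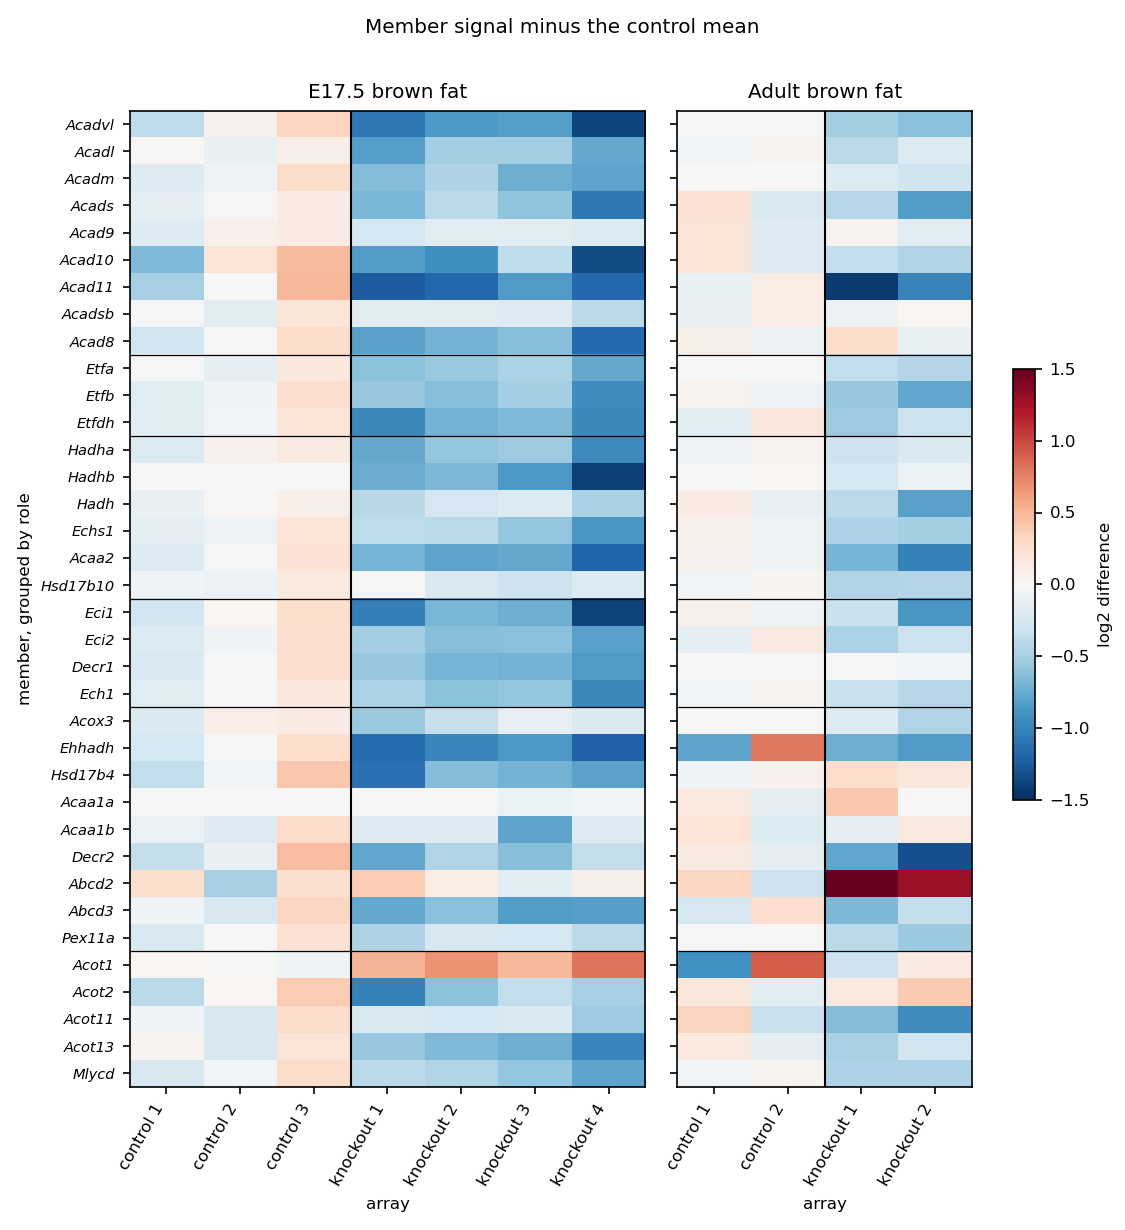
Each tile gives a member's log2 signal minus the mean of the control arrays of the same experiment, for the 7 E17.5 arrays and the 4 adult arrays, with members in rows grouped by role and values past the scale's ends drawn in its end colour. The embryonic knockout columns are blue for 34 members on average, with Acot1 red, and in the adult knockout Abcd2 stands out in red.

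The acyl-CoA dehydrogenases, which start each round, were below 0 in 9 of 9 and had a median difference of -0.69. Acadl, the long-chain enzyme, read 11.61, 11.47 and 11.68 in controls and 10.76, 11.08, 11.07 and 10.82 in knockouts, and fell by 0.65 ± 0.10 (1.57-fold, limma adjusted p = 0.046). Every control lay above every knockout, by at least the gap between 11.47 and 11.08. Acadvl, the very-long-chain enzyme on the inner membrane, read 9.37, 9.82 and 10.08 against 8.68, 8.89, 8.93 and 8.38. Its arrays did not overlap either, but its wider spread gave -1.04 ± 0.20 with an adjusted p of 0.060, so it was not called. Acad11, a further member of the family, had the most negative value of all members at -1.11 ± 0.22 (adjusted p = 0.066), with controls at 7.19, 7.70 and 8.19 and knockouts from 6.44 to 6.84. Acadm and Acads, the medium- and short-chain enzymes, had differences of -0.66 ± 0.13 and -0.69 ± 0.15 without a call and without overlap.

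At the other end of this family, Acad9 and Acadsb had small differences of -0.20 ± 0.09 and -0.24 ± 0.10. ACAD9 is better known as an assembly factor of respiratory complex I, and ACADSB acts in isoleucine breakdown. Acad8, an enzyme of valine breakdown, had -0.83 ± 0.17 with arrays that did not overlap. Acad10 was spread widely among the controls, at 5.50, 6.36 and 6.64, and overlapped with the knockouts at 4.82 to 5.78 (-0.87 ± 0.31, adjusted p = 0.19).

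The electron transfer flavoprotein collects electrons from all these dehydrogenases and passes them to its oxidoreductase. Of the 3 genes for the flavoprotein and the oxidoreductase, 2 were called lower. Etfdh, the oxidoreductase that hands the electrons to ubiquinone, read 11.19, 11.30 and 11.54 in controls and 10.38, 10.63, 10.68 and 10.38 in knockouts, and fell by 0.82 ± 0.12 (1.77-fold, adjusted p = 0.046). Etfa, the α subunit of the flavoprotein, read 10.84, 10.74 and 11.03 against 10.25, 10.31, 10.40 and 10.10, and fell by 0.61 ± 0.10 (1.52-fold, limma adjusted p = 0.046). Etfb, the β subunit, had a value of the same size as its partner, -0.66 ± 0.14, without a call (adjusted p = 0.066). None of the 3 overlapped between groups.

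In the later mitochondrial steps all 6 genes were below 0, with a median of -0.64 and 1 call. Acaa2, the thiolase that splits off acetyl-CoA, read 10.87, 11.04 and 11.28 in controls and 10.37, 10.27, 10.29 and 9.87 in knockouts, and fell by 0.86 ± 0.14 (1.82-fold, adjusted p = 0.049). Hadha and Hadhb encode the subunits of the trifunctional protein for long chains. Their differences were -0.71 ± 0.12 and -0.92 ± 0.17 (adjusted p = 0.054 and 0.059), with no overlap. The Hadhb controls were almost level at 5.89, 5.90 and 5.91, and its knockouts ran from 4.50 to 5.23. Echs1, the short-chain hydratase, had -0.56 ± 0.14. Hadh, the short-chain dehydrogenase, had -0.34 ± 0.09 and Hsd17b10, which acts on branched and steroid substrates and in mitochondrial RNA processing, only -0.18 ± 0.10 with overlapping arrays.

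The auxiliary enzymes, which bring the double bonds of unsaturated fatty acids into the pathway, were all 4 lower without overlap and without a call. Their median was -0.68. Eci1, an enoyl-CoA isomerase of mitochondria, read 9.64, 9.96 and 10.19 against 8.90, 9.25, 9.20 and 8.54, a difference of -0.96 ± 0.20 (adjusted p = 0.068). Decr1, the dienoyl-CoA reductase of mitochondria, missed the threshold by least at -0.70 ± 0.12 (adjusted p = 0.050). Eci2, a further enoyl-CoA isomerase, and Ech1, a dienoyl-CoA isomerase, had -0.65 ± 0.12 and -0.66 ± 0.13.

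Of the peroxisomal genes 8 of 9 were below 0, with a median of -0.35 and 2 calls. Ehhadh, the bifunctional enzyme of the classical peroxisomal route, read 6.13, 6.39 and 6.65 in controls and 5.23, 5.41, 5.53 and 5.18 in knockouts. It fell by 1.05 ± 0.14 (2.07-fold, adjusted p = 0.045), the widest change among the called members. Abcd3, the transporter of long and branched acyl-CoA into peroxisomes, read 8.69, 8.52 and 9.07 against 7.99, 8.13, 7.92 and 7.93 and fell by 0.77 ± 0.13 (1.70-fold, adjusted p = 0.049). Hsd17b4, the other bifunctional enzyme, which handles branched and very long chains, had -0.82 ± 0.19 without overlap (adjusted p = 0.080). Decr2, the peroxisomal dienoyl-CoA reductase, had -0.56 ± 0.20 with overlap, and Acox3, an oxidase of branched chains, had -0.31 ± 0.13 with overlap. Pex11a, which divides peroxisomes, had -0.35 ± 0.11 without overlap.

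Acaa1a and Acaa1b, the peroxisomal thiolases, and Abcd2, a transporter of very long chains, did not stand apart. Acaa1a differed by -0.03 ± 0.05 (95% interval -0.15 to 0.09) and Acaa1b by -0.34 ± 0.19. As a closely similar gene pair their probes may not separate them fully, so both values are uncertain. Abcd2 read 6.51, 5.74 and 6.48 against 6.63, 6.36, 6.07 and 6.33, a difference of 0.11 ± 0.21. Its sign rests on control array 2, the lowest of the 7, and was -0.15 without it.

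Among the thioesterases, which release fatty acids from acyl-CoA, Acot1 went the other way from the rest. It read 4.55, 4.54 and 4.46 in controls and 5.03, 5.19, 5.0 and 5.33 in knockouts and rose by 0.63 ± 0.09 (1.54-fold, adjusted p = 0.046). Its mitochondrial relative Acot2 had -0.62 ± 0.21 with overlapping arrays (adjusted p = 0.17). Acot1 and Acot2 are close copies of each other, and how far the probes of each read the other is not given in the sources used here. Acot13, a thioesterase at mitochondria, had -0.74 ± 0.13 without overlap (adjusted p = 0.054), and Acot11, known from brown fat, -0.32 ± 0.14 with overlap. Mlycd, which removes malonyl-CoA, the inhibitor of fatty acid entry into mitochondria, had -0.55 ± 0.14 without overlap.

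The arrays differed within their groups in a shared way. Control array 3 had the highest control value for 34 of 36 members and control array 1 the lowest for 26. Among knockouts, array 4 was the lowest for 21. The members' mean signal was 8.21, 8.33 and 8.61 in the controls and 7.81, 7.90, 7.87 and 7.66 in the knockouts. Skeletal muscle markers read 6.37, 6.45 and 5.48 on average in the controls and 6.99, 6.86, 6.90 and 6.87 in the knockouts. Of 22 muscle markers, 17 were higher without overlap, 0 were called by limma and 18 had an unadjusted p under 0.05. The control array with the lowest muscle signal was thus the one with the highest member signals, and without it the members' median was -0.53. Stromal markers read 7.69 to 8.14 in controls and 8.34 to 8.57 in knockouts, with 2 of 10, Col1a1 and Col3a1, called higher. Macrophage markers read 5.42 to 5.70 in controls and 5.62 to 5.92 in knockouts, with 0 of 10 called by limma and 2 at an unadjusted p under 0.05. Brown adipocyte markers read 7.85 to 8.43 in controls and 6.73 to 7.20 in knockouts, with 3 of 11, Ucp1, Dio2 and Plin5, called lower. Mature adipocyte markers read 9.16, 9.23 and 9.59 in controls and 8.75, 8.97, 8.97 and 8.74 in knockouts. Of 11 such markers 10 were below 0 and 7 lower without overlap, 0 were called by limma and 9 had an unadjusted p under 0.05. The part of these cell type differences in the members' values was not tested. In tissue RNA, fewer cells of a type and less RNA per cell cannot be told apart.

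**Figure D2:**
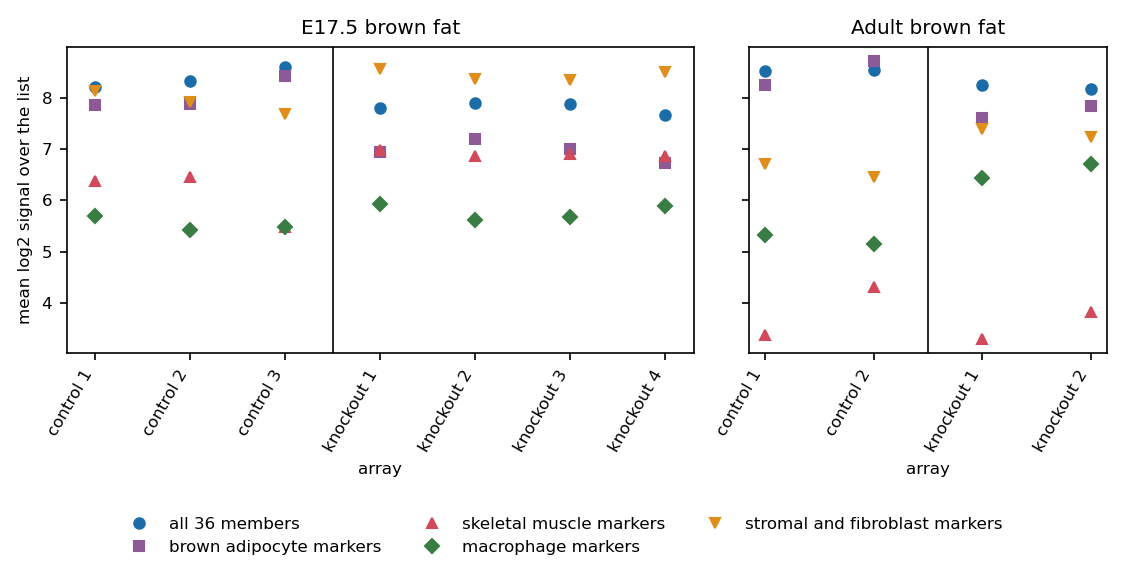
The points give the mean log2 signal of each list in each E17.5 and adult array, for the 36 members and for markers of brown adipocytes, skeletal muscle, macrophages and stroma. The 4 embryonic knockout arrays lie between 7.66 and 7.90 for the members, under the 3 controls at 8.21 to 8.61, and the muscle markers lie higher in the knockouts. In the adult the macrophage markers read 5.15 and 5.32 in controls and 6.43 and 6.70 in knockouts.

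Genes that work next to the members were read from lists written down beside them. Of 12 measured genes of fatty acid activation and the carnitine shuttle, 1 was called lower and 0 higher in the embryo. It was Slc25a20, the carrier that takes acylcarnitine across the inner membrane, at 9.56, 9.84 and 10.36 in controls and 8.45, 8.72, 8.54 and 8.25 in knockouts (-1.43 ± 0.20, adjusted p = 0.046). Cpt2, which reforms acyl-CoA inside, had -0.81 ± 0.18 without a call, and Cpt1a, the entry enzyme of liver type, 0.21 ± 0.13. Of 17 other peroxisomal lipid enzymes 4 were called lower. They include Phyh, which starts α-oxidation of phytanic acid (-1.09 ± 0.17), Nudt7, a peroxisomal CoA hydrolase (-1.09 ± 0.11), and Scp2, the peroxisomal thiolase and lipid carrier (-0.63 ± 0.09). Of 17 genes of branched-chain amino acid and propionyl-CoA breakdown 4 were called lower, led by Bckdhb, a subunit of the branched-chain ketoacid dehydrogenase (-0.73 ± 0.11). The other called gene of peroxisomes was Pex16, which helps form their membrane, 1 of 12 biogenesis genes (-0.77 ± 0.11). None of 12 regulators was called by limma, while 10 had an unadjusted p under 0.05. Ppara, the receptor that drives many members in liver, had -1.29 ± 0.26 (adjusted p = 0.066) and Ppargc1a, its coactivator, -0.49 ± 0.14. Log2 differences were below 0 for 11 of 12 shuttle genes, 14 of 17 other peroxisomal enzymes and 12 of 12 biogenesis genes. They were below 0 for 17 of 17 genes of branched-chain breakdown and 10 of 12 regulators. In that order the medians were -0.28, -0.24, -0.29, -0.57 and -0.33, with 5, 8, 5, 15 and 7 genes lower without overlap. Lower readings were thus not particular to the members. Cpt2, Cpt1a, Ppara and Ppargc1a were chosen after their values were seen.

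In adult brown fat the comparison of AdipoqCre Med1f/f with Med1f/f, on 2 arrays each, gave lower readings for most of the same genes but no call. Of 36 members 31 were below 0, beside 49.5% of all genes, and the median was -0.41 against 0.00 for all genes. The arrays did not overlap and were lower in the knockout for 26 members, beside 20.1% of all genes, and higher for 2, beside 21.8%. Called by limma were 0 members, beside 0.0271% of all genes. At an unadjusted p under 0.05 there were 16 members, beside 13.6% of all genes, and the lowest adjusted p of a member was 0.10. With 2 arrays a group, a single array carries much of each value, and the members' median ran from -0.42 to -0.30 when 1 array was left out.

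The lowest adult value belonged again to Acad11, at 9.09 and 9.31 in controls and 7.77 and 8.2 in knockouts (-1.21 ± 0.20, adjusted p = 0.10). Decr2 followed with 8.32 and 8.04 against 7.40 and 6.86 (-1.05 ± 0.23, adjusted p = 0.15). Acaa2 read 11.12 and 10.99 against 10.36 and 10.04 (-0.85 ± 0.17), close to its embryonic difference of -0.86. Acot11 read 7.49 and 6.82 against 6.51 and 6.21 (-0.80 ± 0.26). All 4 were lower in both knockouts than in either control. Etfa, Etfb and Etfdh had -0.41 ± 0.13, -0.67 ± 0.15 and -0.43 ± 0.18, again without overlap. The trifunctional subunits were closer to 0, Hadha at -0.27 ± 0.13 and Hadhb at -0.18 ± 0.14. The auxiliary genes ran from -0.61 for Eci1 to -0.04 for Decr1.

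Abcd2 stood at the other end. It read 9.02 and 8.40 in adult controls and 10.47 and 9.99 in adult knockouts, higher in both knockouts by 1.52 ± 0.27 (2.87-fold, adjusted p = 0.12), and was not called. With the replicate number as a block limma's adjusted p was 0.044, though these numbers were not taken to pair brown fat samples. In 1 fit over 19 arrays, across experiments that look normalized apart, it was 0.001. Abcd2 was not called with trend and robust fitting, the filter on dim genes, renewed quantile normalization or the mean of a gene's rows. Acot2 (0.27 ± 0.18), Hsd17b4 (0.22 ± 0.14) and Acaa1a (0.21 ± 0.20) were next, and of these only Hsd17b4 did not overlap, at 9.47 and 9.59 against 9.79 and 9.70. Ehhadh and Acot1 had controls too far apart to read. Ehhadh was 6.6 and 8.19 in controls and 6.66 and 6.55 in knockouts (-0.79 ± 0.51), and Acot1 was 3.36 and 5.17 against 3.96 and 4.40 (-0.08 ± 0.59).

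The members' mean signal was 8.53 and 8.55 in adult controls and 8.25 and 8.18 in adult knockouts. Macrophage markers read 5.32 and 5.15 against 6.43 and 6.70, higher without overlap for 10 of 10, and stromal markers 6.71 and 6.46 against 7.40 and 7.23. Skeletal muscle markers overlapped, at 3.38 and 4.31 against 3.30 and 3.83. Brown adipocyte markers read 8.24 and 8.72 against 7.61 and 7.84, with Ucp1 at 12.09 and 12.50 against 10.90 and 11.75. Mature adipocyte markers read 10.11 and 9.98 against 9.53 and 9.03, with 9 of 11 below 0 and 6 lower without overlap, 0 called by limma and 5 at an unadjusted p under 0.05. The part of these marker differences in the adult values was not tested. Of the neighbouring lists no gene was called by limma. An unadjusted p under 0.05 was seen for 6 of 12 shuttle genes, 4 of 17 other peroxisomal enzymes and 4 of 12 biogenesis genes. It was seen for 11 of 17 genes of branched-chain breakdown and 6 of 12 regulators. In that order 7, 10, 8, 14 and 10 genes were below 0, with medians of -0.42, -0.04, -0.10, -0.42 and -0.53. Lower readings were thus not particular to the members here either. Cpt1a, named here after its values were seen, read 4.45 and 3.87 in controls and 7.14 and 8.04 in knockouts (3.42 ± 0.35, adjusted p = 0.059).

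The embryonic and adult knockouts differ in Cre, control genotype and age, and their arrays look normalized apart. These differences cannot be told apart from each other, but the experiments share no array. Set side by side, 30 of 36 members were lower in both knockouts, and 21 were lower without overlap in both. The shares of all genes for both knockouts at once were not computed. They can be at most 49.5% and 6.83%, the smaller of the shares in the embryo and the adult alone. Across the 36 members the log2 differences correlated with a Pearson r of 0.47 and a Spearman rho of 0.34. This describes genes, which are not independent replicates. Hsd17b4 was the only member whose arrays stood apart in opposite directions, lower in the embryo and higher in the adult.

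**Figure D3:**
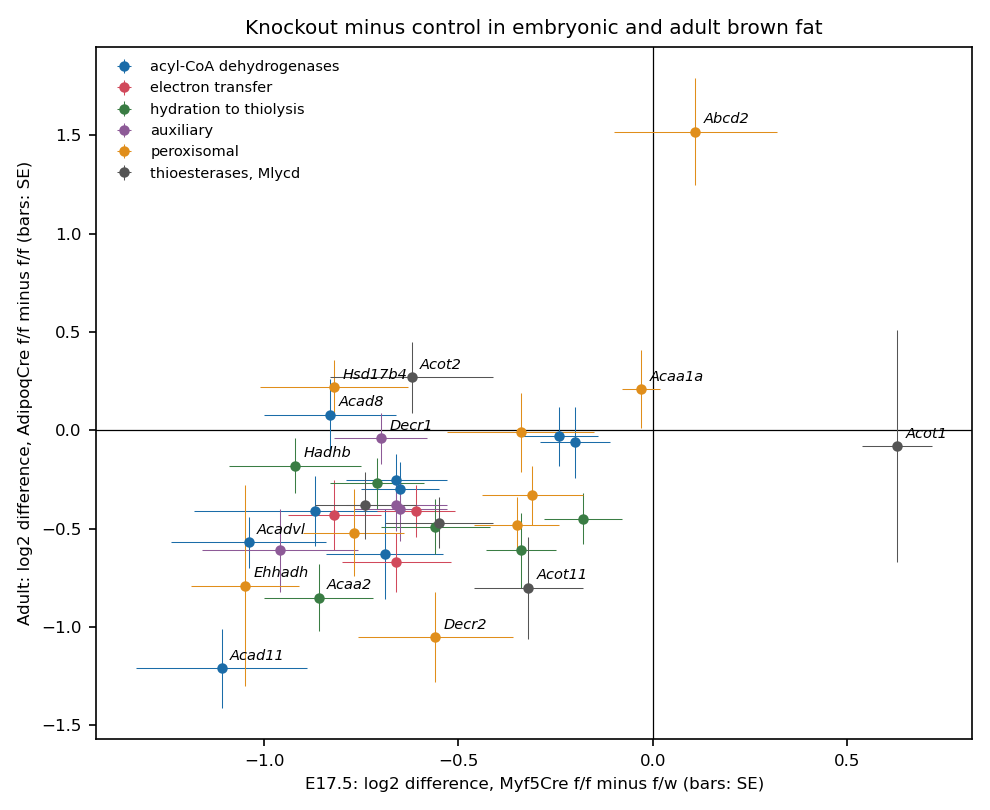
Each point is a member, with its log2 difference in the embryonic knockout on the x axis and in the adult knockout on the y axis, bars giving standard errors and colours the roles. Most points, 30 of 36, lie below 0 on both axes, where at most 49.5% of all genes can lie. Abcd2 is alone at the top, at 1.52 in the adult, and Acot1 alone at the right, at 0.63 in the embryo.

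The difference between the adult and the embryonic effect was tested directly in a fit of all 11 brown fat arrays. Limma called 0 members, beside 1.99% of all genes, and 7 members had an unadjusted p under 0.05, beside 16.3%. The adult effect was less negative or more positive for 27 of 36 and the reverse for 9, beside 47.7% of all genes, with a median difference of 0.25 against 0.01 for all genes. Abcd2 came closest at 1.41 ± 0.37 (adjusted p = 0.087), followed by Hsd17b4 at 1.04 ± 0.28 (adjusted p = 0.091). Acad8, Acot2, Hadhb and Decr1 had 0.91 ± 0.27, 0.89 ± 0.32, 0.73 ± 0.25 and 0.66 ± 0.18. At the low end were Acot1 (-0.71 ± 0.53), Decr2 (-0.49 ± 0.33), Acot11 (-0.48 ± 0.29) and Hadh (-0.27 ± 0.20). Both the count of called members and that of all genes changed when single arrays were left out. The members' median difference then ran from 0.13 to 0.31.

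Neighbouring genes did pass this test. Cpt1a, which admits fatty acids to mitochondria, had a more positive effect in the adult by 3.22 ± 0.35 (adjusted p = 0.0034). Ppargc1b, a coactivator of oxidative genes, read 7.73 and 7.01 in adult controls and 4.21 and 4.51 in adult knockouts. Its adult effect was more negative than the embryonic one by 2.35 ± 0.36 (adjusted p = 0.013). Ppara read 7.93 and 7.36 in adult controls and 3.76 and 4.61 in adult knockouts, and its effect differed by -2.17 ± 0.46 (adjusted p = 0.042). Acsl5, which activates fatty acids, had -1.81 ± 0.37 (adjusted p = 0.036), and Pex5, the import receptor for peroxisomal enzymes, -0.63 ± 0.11 (adjusted p = 0.022). Mmut, the last enzyme of propionyl-CoA breakdown, had 0.95 ± 0.15 (adjusted p = 0.013). So 2 of 12 regulators were called with a more negative adult effect, and 1 shuttle gene in each direction. Macrophage markers had 4 of 10 called with a more positive adult effect. Skeletal muscle markers had 20 of 22 with a more negative adult effect, at a median of -1.16, with 1 called, Des (-2.05 ± 0.25, adjusted p = 0.005), and 8 at an unadjusted p under 0.05. The part of both lists in these values was not tested.

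In 3T3-L1 cells the question was whether the same genes differ between MED1-KO and WT cells. They did not move as a group: over 4 pairs of arrays 18 members were above 0 and 18 below, beside 50.2% of all genes below, with a median of 0.00, the same as for all genes. The labels disagree on the day of 4 of the 8 arrays, but both versions keep the same WT and knockout arrays side by side, so this comparison holds under either. Limma called 0 members, beside 0.289% of all genes, and 4 had an unadjusted p under 0.05, beside 12.3%. The same sign in every pair was seen for 5 members lower, beside 10.8% of all genes, and 5 higher, beside 11%.

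Abcd2 had the widest value of the 36 in this comparison. It was lower in the knockout by 0.74, 0.31, 0.82 and 0.73 in the 4 pairs, at -0.65 ± 0.10 (1.57-fold, adjusted p = 0.063), so it was not called. That depends on the fit: limma's adjusted p was 0.049 with the title day in place of the pairs and 1 with the day of the source label. It was 0.02 with trend and robust fitting, 0.038 with the filter on dim genes and 0.048 without the pair titled day 2 replicate 1. Hsd17b10 was lower by 0.29, 0.26, 0.45 and 0.45 in the pairs (-0.36 ± 0.08, adjusted p = 0.15). Etfb (-0.21 ± 0.09) and Hadh (-0.21 ± 0.10) were also below 0 in each pair, and Abcd3 (0.24 ± 0.08) was above 0 in each. The pair values for Pex11a were 0.12, -1.04, 0.24 and -0.50, which have both signs. Its mean was -0.30 ± 0.20.

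Of the 6 genes called lower in the embryonic knockout, 4 had cell values within 0.1 of 0, and Abcd3, given above, was above 0 in each pair. Etfa was 0.02 ± 0.07 (95% interval -0.15 to 0.19), Etfdh 0.03 ± 0.09 (-0.18 to 0.24) and Acaa2 0.03 ± 0.08 (-0.15 to 0.21). Acadl was -0.09 ± 0.08 (-0.26 to 0.09), lower in every pair by small amounts. Ehhadh, the last of the 6, was dim in all 8 cell arrays, at 3.14 to 3.58 under their lower quartiles, and gives no reading there. Acot1 was -0.18 ± 0.18, with 1 pair at -0.94 and the others from -0.05 to 0.30. The brown fat and cell experiments were not tested against each other.

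**Figure D4:**
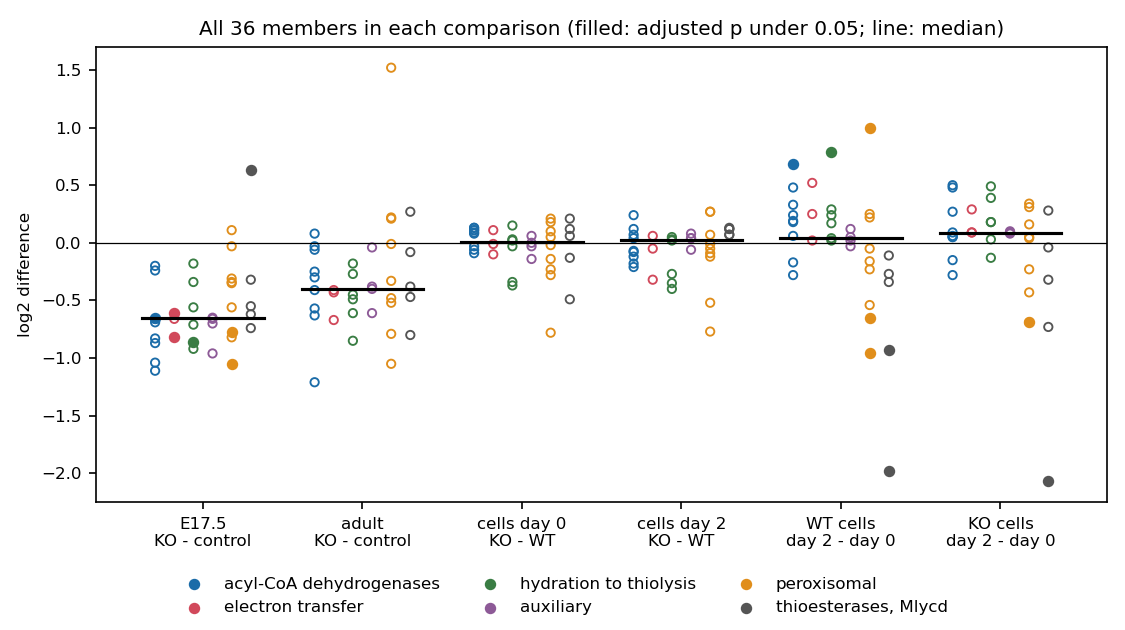
Each point is a member's log2 difference in 1 of 6 comparisons, coloured by role and filled where limma's adjusted p was under 0.05, and the black line is the median of the 36 members. The medians are -0.66 in the embryo and -0.41 in the adult and lie between 0.01 and 0.08 in the 4 cell comparisons.

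By the day in the sample titles, the genotype comparison on day 0 called 0 members by limma, beside 0.185% of all genes. At an unadjusted p under 0.05 there were 2, beside 4.88%, and 18 were below 0, beside 48.3%. Abcd2 read 6.39 and 6.43 in WT and 5.65 and 5.60 in knockout cells (-0.78 ± 0.15, adjusted p = 0.14), and Acot1 was next at -0.49 ± 0.26. The highest were Acot2 and Abcd3, each at 0.21. On day 2 limma also called 0 members, beside 0.266% of all genes. There 3 had an unadjusted p under 0.05, beside 8.15%, and 17 were below 0, beside 51.6%. Pex11a read 6.18 and 6.01 in WT and 5.13 and 5.51 in knockout cells, a difference of -0.77 ± 0.15 (1.71-fold, adjusted p = 0.12) without overlap. Abcd2 (-0.52 ± 0.15), Hadh (-0.40 ± 0.12) and Hsd17b10 (-0.35 ± 0.17) followed. Abcd3 and Acox3 were highest, each at 0.27. Pparg, the regulator of fat cell formation, was called lower on day 2 at 7.94 and 7.80 in WT and 5.84 and 5.87 in knockout cells (-2.01 ± 0.13, adjusted p = 0.00037). Mature adipocyte markers had 4 of 11 called lower on day 2, and their part in the members' values was not tested.

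The difference between the genotype effects of both days was tested as an interaction. Limma called 0 members and 0 of all genes, and at an unadjusted p under 0.05 there was 1 member, beside 4.24% of all genes. Below 0 were 18 members, beside 50.9%. Pex11a had the largest value, -0.95 ± 0.22 (adjusted p = 0.61), since it was 0.18 higher in the knockout on day 0 and 0.77 lower on day 2. Next were Hadh at -0.37 ± 0.17 and, at the other end, Acot1 at 0.62 ± 0.37 and Hadhb at 0.35 ± 0.31.

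The change from day 0 to day 2 in WT cells, the first days of fat cell formation, touched the members in both directions. By the title days 7 of 36 were called, 3 higher, beside 3.44% of all genes, and 4 lower, beside 5.64%. Over all 36 the median was 0.04 against 0.03 for all genes. An unadjusted p under 0.05 was seen for 12, beside 22% of all genes, and 14 were below 0, beside 44.7%. Under the day of the source label, which mixes the title days in each group, 0 members and 0 of all genes were called. Leaving out single arrays changed the count of called members, and it changed the count over all genes as well. The members' median stayed between 0.01 and 0.07.

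Acot2, the mitochondrial thioesterase, had the widest change of all members in any comparison. It read 10.03 and 10.34 on day 0 and 8.03 and 8.38 on day 2 in WT cells and fell by 1.98 ± 0.17 (3.95-fold, adjusted p = 0.00017). In knockout cells it read 10.48 and 10.32 against 8.22 and 8.44 and fell by 2.07 ± 0.17 (4.21-fold, adjusted p = 0.00025). The day effect on Acot2 differed between genotypes by -0.09 ± 0.24, with an adjusted p of 1. Acot13 fell in WT cells from 8.18 and 8.62 to 7.18 and 7.76 (-0.93 ± 0.24, adjusted p = 0.043). In knockout cells its value was -0.73 ± 0.24 without a call.

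Abcd2 fell in both genotypes, in WT cells from 6.39 and 6.43 to 5.26 and 5.64 (-0.96 ± 0.15, adjusted p = 0.0037) and in knockout cells from 5.65 and 5.60 to 4.95 and 4.92 (-0.69 ± 0.15, adjusted p = 0.025). Acox3 fell in WT cells from 6.88 and 6.93 to 6.26 and 6.25 (-0.65 ± 0.12, adjusted p = 0.011), and in knockout cells had -0.43 ± 0.12 without a call. The other 3 rose in WT cells. Pex11a went from 5.15 and 5.03 to 6.18 and 6.01, a rise of 1.0 ± 0.15 (2-fold, adjusted p = 0.0035), and had 0.05 ± 0.15 in knockout cells. Echs1 rose by 0.79 ± 0.19 (adjusted p = 0.035), from 7.38 and 7.5 to 7.94 and 8.53. Acadm rose by 0.68 ± 0.14 (adjusted p = 0.015), from 9.44 and 9.39 to 10.23 and 9.95. The test of the difference between genotypes called none of these 7.

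In knockout cells 2 of 36 members were called, both lower, beside 3.57% of all genes, and 0 higher, beside 2.14%. An unadjusted p under 0.05 was seen for 9, beside 17.3%, and 11 were below 0, beside 47.3%. The counts of called members and of all called genes both changed when single arrays were left out. The members' median stayed between 0.04 and 0.08. Acadm (0.50 ± 0.14), Echs1 (0.49 ± 0.19), Acad11 (0.48 ± 0.19) and Hadhb (0.39 ± 0.22) were the highest members without a call.

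**Figure D5:**
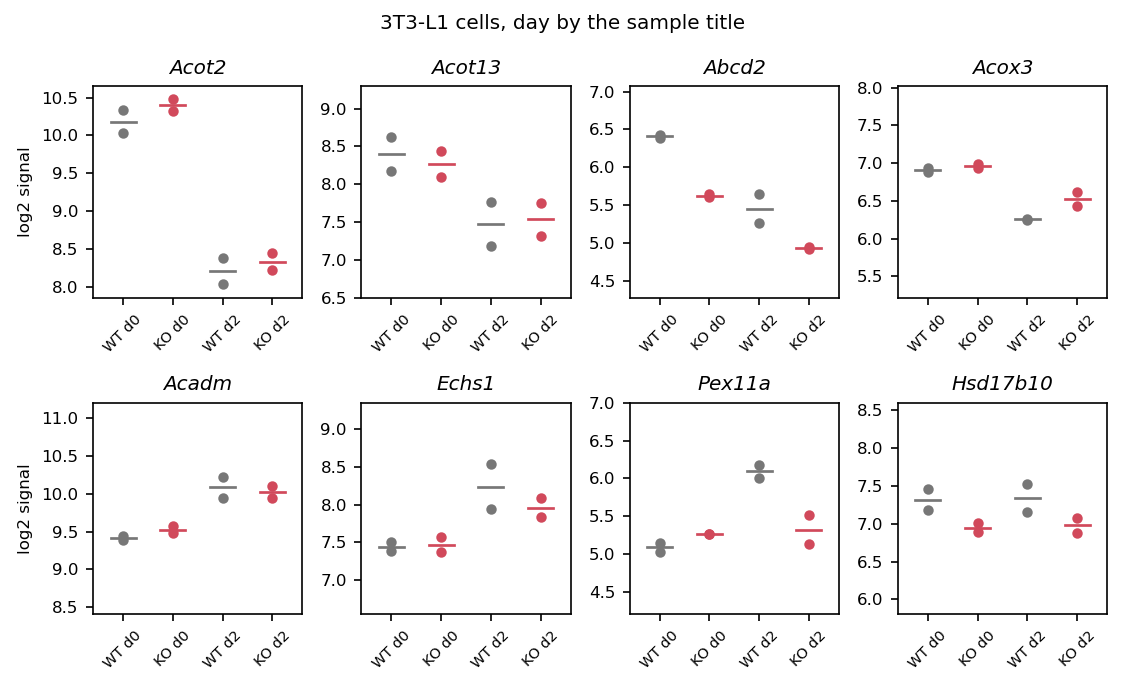
Points are the log2 signals of 8 members in each of the 8 cell arrays, by genotype and by the day in the sample title, and lines are the means of 2 arrays. All panels span the same range of log2 units. Acot2 drops from between 10.03 and 10.48 to between 8.03 and 8.44 over both genotypes, and Pex11a rises on day 2 in WT cells to 6.01 and 6.18 and reads 5.13 and 5.51 in knockout cells.

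Neighbouring genes also changed between days. In WT cells 1 of 12 shuttle genes was called higher, Cpt2 (0.77 ± 0.12), and 2 lower, Cpt1a (-1.04 ± 0.17) and Slc27a1, a fatty acid transporter (-0.92 ± 0.19). Among the regulators 4 of 12 were called higher, led by Pparg (2.02 ± 0.13), Nrip1, a corepressor of oxidative genes (1.31 ± 0.15), and Rxra, the partner of the PPARs (1.25 ± 0.14), and 1 lower, Ppargc1a (-1.22 ± 0.24). Other peroxisomal enzymes had 2 of 17 called higher, Scp2 (0.76 ± 0.13) and Slc25a17, a peroxisomal cofactor carrier (0.69 ± 0.12), and 1 lower, Nudt7 (-0.61 ± 0.14). In branched-chain breakdown 1 of 17 was called higher, Ivd, the dehydrogenase of leucine breakdown (0.51 ± 0.13). In knockout cells 4 regulators were again called higher, led by Lpin1 (1.57 ± 0.17), and Ppargc1a was called lower (-0.99 ± 0.24). Pparg, among those 4, had 0.80 ± 0.13 there. Shuttle genes had 2 of 12 called higher and 2 lower in knockout cells. Other peroxisomal enzymes had 1 of 17 called higher and 1 lower, and branched-chain breakdown 1 of 17 lower. These called genes are counted here without names. Between days in WT cells stromal markers had 5 of 10 called lower and 1 higher, and mature adipocyte markers 7 of 11 called higher. In knockout cells 4 of 10 stromal markers were called lower and 1 of 11 mature adipocyte markers higher. Their part in the members' values was not tested.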

How the data were processed

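Per the labels' protocols, RNA came from a Trizol extraction and was labelled with the GeneChip WT PLUS kit. A single table covers the 19 arrays, in which the authors deposited log2 values. The submitters' processing notes list Transcriptome Analysis Console and RMA; neither has a version there. The genome build is not given in the sources used here. Of 41345 rows, 23521 had 1 gene symbol in the platform annotation, 1814 several and 16010 none. For 1082 genes with more than 1 row the row with the highest mean was used, which left 22180 genes. No dim gene was removed. A gene was read as dim in a group where every array lay under its own lower quartile.

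Each experiment was fitted alone in R 4.3.3 by the linear models of limma 3.58.1 (moderated with eBayes, two-sided, Benjamini-Hochberg over 22180 genes, threshold 0.05). Fits were tested on simulated data. Groups come from sample titles. The cell genotype comparison over pairs used the 4 array pairs as a block. The pairs share a day under either label and a number, and no label says that they share a culture. Same-numbered arrays correlated in their deviations at 0.31, -0.02 and 0.11 in the embryo, 0.33 in the adult, and 0.35 and 0.30 between WT and knockout cells on day 0 and day 2. The numbers were not taken to pair samples from the brown fat. The number of arrays limits the precision.

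The members and lists were chosen with earlier results of these data known. The rule named each called member, the 4 lowest and 4 highest members in each comparison, up to 3 called genes per neighbouring list and direction, and Med1. Alternatives were moderated fits with trend, a filter on dim genes, renewed quantile normalization, the mean of a gene's rows, 1 fit over 19 arrays, array weights, replicate numbers as a block, the day by source label and leaving out each array. List genes outside the 22180 were not analysed here.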

Additional observations from a re-analysis of the deposited data

Results flagged for a closer look

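Acadsb read 7.28 in E17.5 knockout array 4 and 7.5 to 7.52 in the other 3 knockout arrays, a gap large enough to pass Dixon's test for a single outlying value. Acaa1b read 3.20 in E17.5 knockout array 3 and 3.8 in each of the others, and 4 of the 7 embryonic arrays hold that same value for this gene. Acot11 read 3.52 in E17.5 knockout array 4 and 3.8 to 3.83 in the others. These are 3 of 36 members, beside 4231 of the 21783 genes whose values in the same 4 arrays are not all equal (19.4%), and chance alone marks about 1 in 20. No cause was tested.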

How the results depend on the processing

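With 1 array left out, the members' median stayed below 0 in both brown fat knockouts. Its highest value was -0.53 for the E17.5 arrays and -0.30 for the adult arrays. In the genotype comparisons of cells it took both signs, with the widest range, -0.09 to 0.05, for the genotype by day effect. Medians under the other alternatives are not given here. Counts of called members also changed. Apart from the settings whose own construction changes the genes or arrays fitted, the cause was not tested. Apart from leaving out arrays, counts over all genes also moved in 20 alternative runs, by over 1.5 times or to or from 0. They did not in 40. The member counts below stand without the share of all genes called under the same setting. They are therefore no measure of the pathway against other genes. In the embryo 19 members were called with the filter on dim genes, 12 after renewed quantile normalization, 24 in 1 fit over 19 arrays and 0 with the replicate block. In the adult there were 9 in the fit over 19 arrays and 1 with the replicate block. The day 2 genotype comparison had 1 in the fit over 19 arrays. Over the pairs 1 was called with trend and robust fitting, 1 with the filter on dim genes and 1 with no replicate block and title days. Between days, the source label gave 0 in WT and 0 in knockout cells. In knockout cells the count was 1 in the fit over 19 arrays and 5 with the replicate block. The adult minus embryonic difference had 4 in the fit over 19 arrays. The replicate block changed no other count of called members by over 1.5 times.

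Leaving out 1 array gave 0 to 0 called members in the embryo, 3 to 7 between days in WT cells, 1 to 2 in knockout cells, 0 to 1 over the pairs and 0 to 1 for the adult minus embryonic difference. Signs turned for Abcd2 in the embryo (-0.15 without control 2, range -0.15 to 0.24), Acad11 on day 2 (-0.01 without WT replicate 1, up to 0.48) and Acot1 in the adult minus embryonic difference (0.20 without adult control 2, down to -1.61). By the source label, WT day differences turned for Acadm (-0.16), Acox3 (0.02), Abcd2 (0.21), Pex11a (-0.14), Acot2 (0.33), Acot13 (0.52) and Etfb (-0.15). In knockout cells they turned for Acot2 (0.03), Acot13 (0.38), Decr2 (0.23), Acadm (-0.03) and Hadhb (-0.23). The day 0 genotype value of Pex11a became -0.46, and the genotype by day values 0.34 for Pex11a, -0.10 for Acad11 and -0.13 for Acaa1a.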
